A study of Homo sapiens with 32 samples.

Results

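The genes described here are BNIP3 and 9 other genes known as targets of the hypoxia-inducible transcription factors (HIF): BNIP3L, CA9, VEGFA, NDRG1, PDK1, ADM, EGLN3, ANKRD37 and SLC2A1. They are 10 of the 35238 genes in the deposited expression table. BNIP3 was chosen on measured values: its level was lower with the drug combination than with vehicle in Ishikawa-S33Y cells and not in Ishikawa cells. Those 4 groups of BNIP3 values are therefore given as a description with no test. The other 9 genes were taken to ask whether known HIF targets moved with BNIP3 in each line.

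The study measured RNA in 4 human endometrial cancer cell lines after 24 h of treatment, with 2 libraries for each of 16 groups, 32 in all. Ishikawa is labelled wild type for CTNNB1, the gene of beta-catenin, and Ishikawa-S33Y, SNGM and HEC265 are labelled CTNNB1-mutated. Each line received vehicle (0.1% DMSO), paclitaxel, which stabilises microtubules, SM08502, an inhibitor of the CLK family of splicing kinases, or both drugs together, called the combination below. Paclitaxel and SM08502 were given at 11 nM and 80 nM in Ishikawa, at 5.6 nM and 149 nM in HEC265, at 11.7 nM and 350.7 nM in SNGM, and at 6 nM and 85 nM in Ishikawa-S33Y. The labels give these doses as each line's half-maximal inhibitory concentration, so the dose differed between lines wherever their responses are compared. RNA input was 350 ng for Ishikawa and 500 ng for the other lines. The labels name no hypoxic incubation, do not say how the S33Y line was made or whether it is 1 clone, and describe the duplicates only as plated in duplicate. The p-values therefore rest on the spread between duplicate platings within a cell line. In the main fit that spread was pooled over all 16 groups of the 4 lines and was not that of the compared groups alone. In such bulk libraries, fewer cells with a transcript and less of it per cell cannot be told apart.

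Depth was 13 to 34.1 M reads in 30 libraries (M, 1e+06), 2.99 M in replicate 2 of the combination in Ishikawa-S33Y and 1.61 M in replicate 2 of the combination in SNGM. The members' combination differences against vehicle in those lines were also fitted without the shallow libraries. That value is given where the call or the sign changed or the log2 difference moved by over 1.5 times. For single genes other than the members, the values given include the shallow libraries, and such moves are not listed. The epithelial markers EPCAM, KRT8, KRT18, KRT19 and CDH1 were detected in every library, with a summed level of 702 to 2970 counts per M reads (CPM). PAX8, a transcription factor of the Müllerian tract, lay between 64.4 and 514 CPM. ESR1 and PGR, the hormone receptors of endometrium, were at 0 in some libraries. Markers of other cell types were not all near 0. The leukocyte markers (PTPRC, CD3E and CD68) summed to between 4.35 and 51.8 CPM, mostly CD68, which reached 50.4 CPM, while CD3E stayed at or below 0.444. The endothelial markers (PECAM1, VWF and CDH5) summed to between 1.15 and 10.6 CPM, with VWF up to 8.34, PECAM1 up to 4.31 and CDH5 at or below 0.462. The fibroblast markers (COL1A1, COL3A1, DCN and LUM) summed to between 712 and 1160 CPM in Ishikawa-S33Y, 29.4 and 192 in Ishikawa and at most 6.76 in the other lines, mostly COL1A1, while COL3A1 reached 4.69, DCN 3.73 and LUM 0.308. Their part in the results below was not tested.

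HIF is a pair of proteins, an oxygen-labile alpha subunit and a stable partner (ARNT), that binds DNA and activates transcription. In normal oxygen, prolyl hydroxylases of the EGLN family mark the alpha subunit for VHL and its ubiquitin ligase, and the subunit is degraded. When oxygen is low or the degradation is impaired, HIF induces genes of glucose uptake, glycolysis, blood vessel growth, pH control and mitophagy. BNIP3 and its relative BNIP3L are proteins of the outer mitochondrial membrane that bind LC3-type proteins and lead mitochondria into autophagy. In endometrium, HIF targets such as VEGFA and ADM are known from the menstrual cycle and from tumour vascularisation.

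HIF recognises short cores within hypoxia response elements, so the 250 bases before the annotated start of each gene were searched on both strands for the 5-letter cores ACGTG and GCGTG. RefSeq promoter sequences (GRCh38.p14) were at hand for 7 of the 10 genes. BNIP3 held 6 matches in 5 separate stretches, ANKRD37 held 3, the second annotated start of PDK1 held 2, and CA9 and ADM held 1 each. SLC2A1, EGLN3 and the first annotated start of PDK1 held none. Among 35116 promoters of the same length, 43.2% held at least 1 match (18.5% held ACGTG and 32.2% held GCGTG) and 7.76% held 3 or more, so a single match was common. A match is a run of letters in the reference sequence and was not measured as a binding site here. The 5 windows below are printed 5′ to 3′ on the gene's own strand because they span the range from 6 matches to 0. Capitals mark the matches on either strand, merged where the palindromic CACGTG matches on both.
BNIP3, chr10:131981924-131982173, minus strand: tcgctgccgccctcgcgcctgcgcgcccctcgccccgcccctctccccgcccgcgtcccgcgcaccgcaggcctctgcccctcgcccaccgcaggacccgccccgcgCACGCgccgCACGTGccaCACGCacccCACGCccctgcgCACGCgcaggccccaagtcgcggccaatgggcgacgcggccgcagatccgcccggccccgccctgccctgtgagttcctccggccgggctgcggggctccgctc
ANKRD37, chr4:185396591-185396840, plus strand: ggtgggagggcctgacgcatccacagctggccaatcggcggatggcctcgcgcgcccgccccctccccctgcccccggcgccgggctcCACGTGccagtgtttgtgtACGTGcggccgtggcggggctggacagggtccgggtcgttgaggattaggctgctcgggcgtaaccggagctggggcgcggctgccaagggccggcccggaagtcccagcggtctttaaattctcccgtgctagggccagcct
PDK1, second start, chr2:172555840-172556089, plus strand: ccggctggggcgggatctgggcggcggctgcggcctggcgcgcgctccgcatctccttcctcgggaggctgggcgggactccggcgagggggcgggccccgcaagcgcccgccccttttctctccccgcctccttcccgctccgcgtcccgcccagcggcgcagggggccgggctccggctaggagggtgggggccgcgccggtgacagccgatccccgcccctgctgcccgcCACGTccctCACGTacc
ADM, chr11:10304823-10305072, plus strand: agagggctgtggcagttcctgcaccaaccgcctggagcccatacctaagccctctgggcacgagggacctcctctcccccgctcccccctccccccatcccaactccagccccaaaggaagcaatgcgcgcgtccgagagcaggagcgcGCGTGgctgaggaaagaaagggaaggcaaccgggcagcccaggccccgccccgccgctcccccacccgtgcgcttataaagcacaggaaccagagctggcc
SLC2A1, chr1:42958869-42959118, minus strand: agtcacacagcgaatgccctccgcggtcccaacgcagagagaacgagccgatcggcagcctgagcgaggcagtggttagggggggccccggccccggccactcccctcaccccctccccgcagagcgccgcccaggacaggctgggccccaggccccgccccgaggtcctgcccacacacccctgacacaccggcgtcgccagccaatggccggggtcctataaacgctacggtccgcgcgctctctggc
In BNIP3 the 6 matches lay between 143 and 100 bases before the start, and in PDK1 both lay within the last 17 bases. SLC2A1 has no match in this window and is among the genes described next whose level fell in Ishikawa-S33Y.

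**Figure D1:**
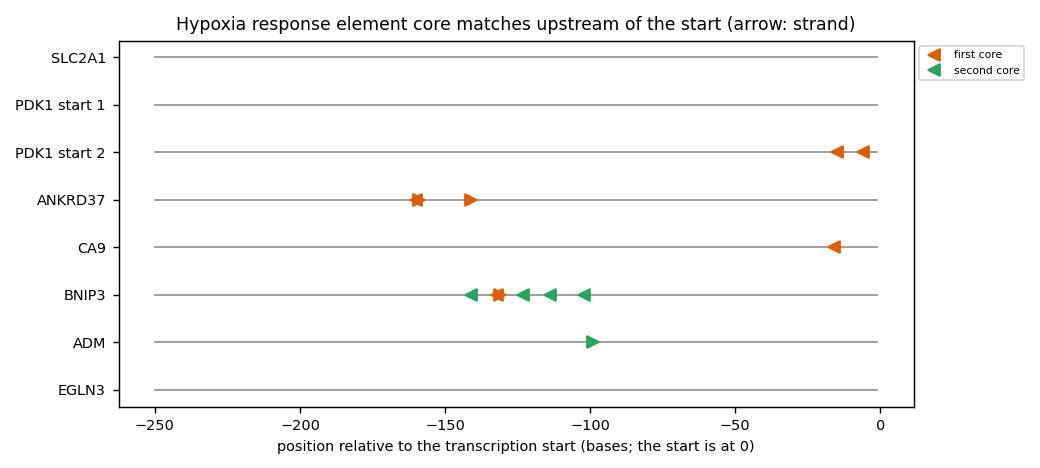
Positions of hypoxia response element core matches in the 250 bases upstream of 8 annotated starts of 7 of the genes. The x axis is the distance from the start in bases, each row is 1 start, arrows give the strand, and colours give the core (first core ACGTG, second core GCGTG). The BNIP3 row holds 6 matches between 143 and 100 bases before the start, and 3 rows are empty.

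The mitophagy receptors came first. BNIP3 (chr10:131967684-131981923) was high at baseline in 2 lines, and in those lines it was lower wherever SM08502 was present. In Ishikawa-S33Y it stood at 202 and 206 CPM on vehicle, 206 and 206 on paclitaxel, 99.5 and 58.7 on SM08502, and 60.9 and 40.1 on the combination. In Ishikawa it stood at 51.4 and 46.2 CPM on vehicle, 48.2 and 47.5 on paclitaxel, 47 and 52.7 on SM08502, and 52.1 and 49.7 on the combination. The 2 combination libraries and replicate 2 of SM08502 in Ishikawa-S33Y lay around the level that Ishikawa held under every treatment. Replicate 1 of SM08502, at 99.5 CPM, lay between that level and the vehicle and paclitaxel libraries of the S33Y line. As a description with no test, the combination against vehicle was a log2 difference of -2.02 in Ishikawa-S33Y and 0.06 in Ishikawa (all log2 differences are on the log2(CPM + 1) scale). The combination and SM08502 groups of that line overlapped, since 60.9 CPM exceeded 58.7 CPM.

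The same gene could be tested in libraries that did not choose it. SM08502 against paclitaxel in Ishikawa-S33Y lowered BNIP3 by a log2 difference of -1.42 (SE 0.17, limma adjusted p = 5.49e-06). In Ishikawa that contrast gave 0.06 (95% interval -0.30 to 0.41, limma adjusted p = 0.899). The difference between the lines was -1.47 (SE 0.24, limma adjusted p = 0.00468). It missed the threshold when only these 2 lines entered the fit (limma adjusted p = 0.104) and held in every other setting.

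SNGM on vehicle held BNIP3 near the level of Ishikawa-S33Y. Its libraries stood at 211 and 197 CPM on vehicle, 208 and 188 on paclitaxel, 119 and 125 on SM08502, and 126 and 129 on the combination. No SNGM library with SM08502 overlapped one without it. The fall with the combination was -0.68 (SE 0.17, limma adjusted p = 0.00775) and with SM08502 alone -0.74 (SE 0.17, limma adjusted p = 0.00775). The combination call was lost without replicate 1 of SNGM vehicle (limma adjusted p = 0.0606), and the SM08502 call without that library (0.0748) or without replicate 1 of SNGM SM08502 (0.0825). In HEC265 all 8 libraries lay between 90.4 and 104 CPM, and the combination gave 0.09 (SE 0.17, limma adjusted p = 0.829), or -0.02 after median re-centring. On vehicle HEC265 lay below SNGM by a log2 difference of -1.12 (SE 0.17, limma adjusted p = 7.95e-06). Across lines on vehicle the order was therefore SNGM and Ishikawa-S33Y together, then HEC265, then Ishikawa. BNIP3 overlaps PPP2R2D on the genome, and BNIP3 pseudogenes summed to 2.01 to 12.4 CPM per library, so a small share of reads could belong elsewhere.

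BNIP3L (chr8:26383054-26413127) fell in Ishikawa-S33Y but passed no test against vehicle in the other lines. Ishikawa-S33Y libraries stood at 255 and 261 CPM on vehicle, 272 and 268 on paclitaxel, 168 and 132 on SM08502, and 94.6 and 118 on the combination. The drop with the combination was 2.43-fold (log2 -1.28, SE 0.16, limma adjusted p = 2.82e-06) and with SM08502 alone 1.73-fold (log2 -0.79, SE 0.16, limma adjusted p = 0.001). Ishikawa held between 136 and 188 CPM over its 8 libraries, with 175 and 183 on the combination. SNGM combination libraries stood at 187 and 279 CPM against 284 and 248 on vehicle, so these groups overlapped, and the difference was -0.21 (limma adjusted p = 0.398) or -0.50 without the shallow library of 279 CPM (0.0503). HEC265 moved between 131 and 161 CPM. The combination's effect on BNIP3L in Ishikawa-S33Y differed from that in Ishikawa by -1.49, from SNGM by -1.07 and from HEC265 by -1.44 (limma adjusted p = 0.000414, 0.00226 and 0.000206).

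**Figure D2:**
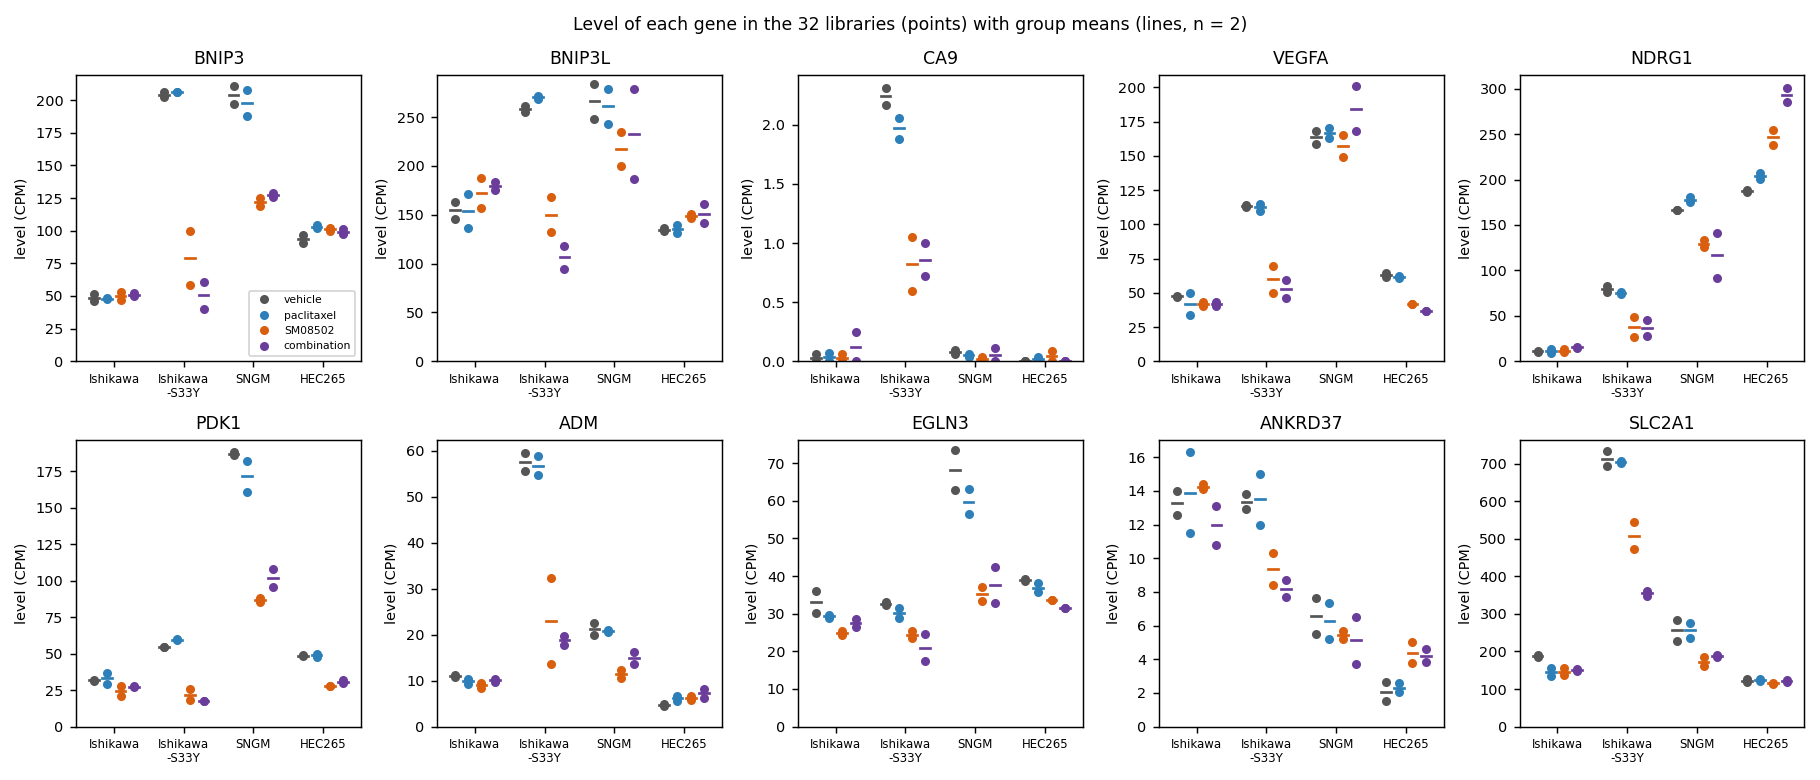
Levels of the 10 genes in all 32 libraries, as CPM on linear axes that start at 0, by line and treatment. Each point is 1 library and each short line is the mean of a group (n = 2). The Ishikawa-S33Y points of BNIP3 drop from 202 and 206 CPM on vehicle to 60.9 and 40.1 CPM on the combination, while the Ishikawa points stay between 46.2 and 52.7 CPM.

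Of the genes of glucose metabolism and pH control, SLC2A1 and PDK1 fell clearly in Ishikawa-S33Y, and CA9 was detectable mainly in that line. SLC2A1 (chr1:42925353-42958868) encodes GLUT1, the basal glucose transporter. Its Ishikawa-S33Y libraries stood at 733 and 695 CPM on vehicle, 707 and 703 on paclitaxel, 544 and 473 on SM08502, and 349 and 361 on the combination. Levels stepped down from vehicle to SM08502 to the combination without overlap. Against vehicle the combination gave -1.01 (SE 0.11, limma adjusted p = 4.85e-07) and SM08502 alone -0.49 (SE 0.11, limma adjusted p = 0.00187). The combination against SM08502 alone gave -0.51, which missed the threshold (SE 0.11, limma adjusted p = 0.0598).

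SLC2A1 was also the 1 member called in Ishikawa. It went from 190 and 186 CPM on vehicle to 153 and 148 on the combination, a log2 difference of -0.32 (SE 0.11, limma adjusted p = 0.0405). Paclitaxel libraries of the same line, at 155 and 135 CPM, lay on either side of the combination pair and below both vehicle libraries. The call with the combination was lost in 4 of 11 other settings and without any 1 of the 4 libraries. In SNGM the gene went from 284 and 228 CPM to 191 and 184 with the combination (log2 -0.44, SE 0.11, limma adjusted p = 0.00779). That call was lost with the line alone (limma adjusted p = 0.146) and without replicate 1 of SNGM vehicle (log2 -0.28). It was also lost without replicate 2 of the SNGM combination, the shallow library of that line, or without both shallow libraries (log2 -0.41 in each). HEC265 stayed between 113 and 127 CPM under all treatments.

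PDK1 (chr2:172555373-172724312) encodes a mitochondrial kinase that inhibits pyruvate dehydrogenase. With the combination it fell in 3 of the 4 lines. Ishikawa-S33Y libraries stood at 54.5 and 54.7 CPM on vehicle, 59.1 and 59.8 on paclitaxel, 25.7 and 17.9 on SM08502, and 17.5 and 17.7 on the combination. SNGM libraries stood at 186 and 188 CPM on vehicle, 182 and 161 on paclitaxel, 88.4 and 85.4 on SM08502, and 95.4 and 108 on the combination. HEC265 libraries stood at 48.1 and 48.7 CPM on vehicle, 49.4 and 48 on paclitaxel, 27.9 and 27.8 on SM08502, and 31.7 and 30 on the combination. In each of these lines the libraries with SM08502 lay below every library without it. The combination lowered PDK1 by 2.99-fold in Ishikawa-S33Y, 1.83-fold in SNGM and 1.55-fold in HEC265 (limma adjusted p = 2.69e-08, 0.000162 and 0.00192). In Ishikawa the levels were 31.4 and 32 CPM on vehicle and 27 and 27.8 on the combination, and the difference of -0.20 did not pass (SE 0.14, limma adjusted p = 0.304). The fall was larger in Ishikawa-S33Y than in Ishikawa by -1.38, than in SNGM by -0.70 and than in HEC265 by -0.94 (limma adjusted p = 0.000204, 0.0116 and 0.00187). The comparison with SNGM missed the threshold without the shallow libraries (limma adjusted p = 0.0723). PDK1 shares its interval with the antisense genes PDK1-AS1 and RAPGEF4-AS1, and the strand setting of the counting is not given in the sources used here.

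CA9 (chr9:35673928-35681159) encodes carbonic anhydrase IX, a cell-surface enzyme that removes acid. It exceeded 1 CPM in 6 libraries, all of Ishikawa-S33Y, and therefore passed the filter on low values through that line alone. Its Ishikawa-S33Y libraries stood at 2.17 and 2.31 CPM on vehicle, 1.88 and 2.06 on paclitaxel, 1.05 and 0.593 on SM08502, and 0.719 and 1 on the combination. No CA9 library of that line with SM08502 reached the level of one without it. Every library of the other lines was at or below 0.244 CPM. These values rest on at most 55 reads per library, and CA9 was left out of all counts and tests.

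**Figure D3:**
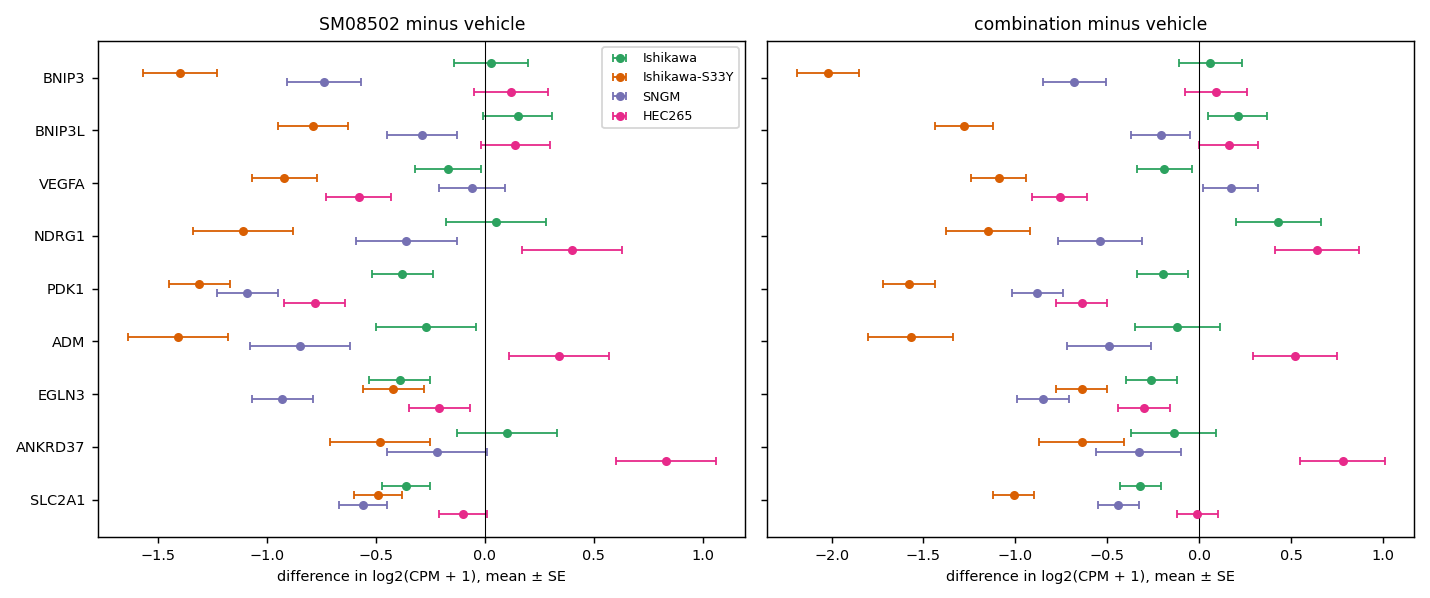
Log2 differences of the members against vehicle in the 4 lines, on the log2(CPM + 1) scale, for SM08502 (left) and the combination (right), without CA9. Points are limma estimates, bars are 1 SE and colours are lines. In Ishikawa-S33Y the combination estimates run from -2.02 (BNIP3, described without a test) to -0.64 (EGLN3 and ANKRD37), while in HEC265 ANKRD37 lies at 0.78.

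The secreted signals VEGFA and ADM both fell in Ishikawa-S33Y. VEGFA (chr6:43770211-43786487), the main growth factor for blood vessels, stood in Ishikawa-S33Y at 113 and 114 CPM on vehicle, 115 and 110 on paclitaxel, 69.9 and 49.9 on SM08502, and 59.3 and 46.5 on the combination. Libraries with SM08502 were all below those without it. The combination gave -1.09 (SE 0.15, limma adjusted p = 8.75e-06). HEC265 went from 64.3 and 61.8 CPM on vehicle to 42 and 41.5 on SM08502 and 36.8 and 36.8 on the combination, again without overlap. That fall was -0.76 with the combination (SE 0.15, limma adjusted p = 0.00109). The combination's effect on VEGFA in Ishikawa-S33Y minus that in HEC265 did not pass the threshold in any setting. In SNGM the highest VEGFA library was a combination library at 201 CPM, and vehicle stood at 168 and 159 (log2 0.17, limma adjusted p = 0.489, or 0.30 and 0.317 without the shallow library). Ishikawa held 47 and 47.7 CPM on vehicle and 42.9 and 40.2 on the combination, a difference of -0.19 (SE 0.15, limma adjusted p = 0.406). The effect in Ishikawa-S33Y was lower than in SNGM by -1.26 and than in Ishikawa by -0.90 (limma adjusted p = 0.000343 and 0.0103). The latter was lost without replicate 2 of the Ishikawa-S33Y combination (limma adjusted p = 0.0557) and with the 2 lines alone (0.0751).

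ADM (chr11:10305073-10307397) encodes adrenomedullin, a vasodilator peptide. Ishikawa-S33Y libraries stood at 55.6 and 59.6 CPM on vehicle, 54.7 and 58.8 on paclitaxel, 32.3 and 13.6 on SM08502, and 19.8 and 17.7 on the combination. The SM08502 duplicates lay far apart, on either side of the combination pair, and all 4 were below the libraries without SM08502. The combination gave 2.96-fold lower ADM (log2 -1.57, SE 0.23, limma adjusted p = 1.35e-05). In SNGM the levels were 22.6 and 19.9 CPM on vehicle, 10.5 and 12.2 on SM08502, and 13.5 and 16.2 on the combination. The SM08502 difference of -0.85 passed (SE 0.23, limma adjusted p = 0.0223) and the combination's of -0.49 did not (limma adjusted p = 0.138). The SM08502 call was lost without any 1 of its 4 libraries (limma adjusted p = 0.0607 to 0.192). HEC265 held 4.9 and 4.48 CPM on vehicle and 6.21 and 8.17 on the combination (log2 0.52, SE 0.23, limma adjusted p = 0.12), a difference that passed with that line alone (0.0348). Ishikawa held 8.45 to 11.2 CPM across its 8 libraries.

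EGLN3, ANKRD37 and NDRG1 fell with the combination in Ishikawa-S33Y, EGLN3 also fell in SNGM, and ANKRD37 rose in HEC265. EGLN3 (chr14:33924227-33951074) encodes PHD3, a prolyl hydroxylase that HIF itself induces and that acts back on HIF. Ishikawa-S33Y stood at 33 and 32.4 CPM on vehicle, 28.8 and 31.6 on paclitaxel, 25.3 and 23.4 on SM08502, and 24.5 and 17.4 on the combination. SNGM stood at 73.4 and 62.9 CPM on vehicle, 63.2 and 56.4 on paclitaxel, 33.4 and 37.2 on SM08502, and 32.8 and 42.3 on the combination. In both lines every library with SM08502 lay below every library without it. The combination gave -0.64 in Ishikawa-S33Y and -0.85 in SNGM (SE 0.14 in each, limma adjusted p = 0.000707 and 0.000223), the SNGM value missing the threshold with that line alone (0.0505). Without the shallow library the Ishikawa-S33Y value was -0.41 (limma adjusted p = 0.0119). EGLN3 was thus the member whose fitted fall was larger in SNGM than in Ishikawa-S33Y, but the difference between those lines was 0.21 and did not pass the threshold (limma adjusted p = 0.459). Without the 2 shallow libraries it was 0.62 and passed (0.0167). In HEC265, EGLN3 went from 38.6 and 39.2 CPM to 31.5 and 31.5, and in Ishikawa from 35.9 and 30.2 to 26.4 and 28.6, neither passing (limma adjusted p = 0.139 and 0.185). The HEC265 difference of -0.30 passed in 3 of 11 other settings, namely voom (limma adjusted p = 0.0456), without the 2 shallow libraries of the other lines (0.0321) and with the line alone (0.00211).

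ANKRD37 (chr4:185396841-185400723), an ankyrin repeat protein induced by HIF, was the least abundant counted member, with 6 to 328 reads per library. Ishikawa-S33Y libraries stood at 12.9 and 13.8 CPM on vehicle, 12 and 15 on paclitaxel, 10.3 and 8.39 on SM08502, and 8.68 and 7.69 on the combination. The combination gave -0.64 (SE 0.23, limma adjusted p = 0.0297). That call was lost with no filter or a pseudocount of 0.1 (limma adjusted p = 0.0562 and 0.0563), without the shallow libraries (0.084) and without any 1 of the 4 libraries (0.0517 to 0.141). HEC265 went the other way, from 2.63 and 1.51 CPM on vehicle to 3.75 and 5.05 on SM08502 and 4.58 and 3.82 on the combination. That rise was 0.78 (SE 0.23, limma adjusted p = 0.0191), and it was lost with quantile normalization (limma adjusted p = 0.178), without replicate 2 of HEC265 vehicle (0.267) or without either combination library (0.135 and 0.0572). The effects in Ishikawa-S33Y and HEC265 differed by -1.42 (SE 0.33, limma adjusted p = 0.00482). ANKRD37 overlaps LRP2BP and UFSP2, and reads from these genes could not be separated here.

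NDRG1 (chr8:133237175-133297252) encodes a stress-responsive protein linked to differentiation and to suppression of metastasis. It stood in Ishikawa-S33Y at 76.6 and 82.7 CPM on vehicle, 75.7 and 74.5 on paclitaxel, 48.7 and 27 on SM08502, and 45 and 27.7 on the combination. The combination gave -1.15 (SE 0.23, limma adjusted p = 0.000506). HEC265 held 188 and 186 CPM on vehicle, 238 and 255 on SM08502, and 285 and 301 on the combination, so its treated libraries were the higher ones. That difference of 0.64 stood just outside the threshold (SE 0.23, limma adjusted p = 0.0579). It passed in 7 of 11 other settings: the stricter filter (0.0467), quantile normalization (0.0355), the replicate block (0.0363), voom (0.00816), the length covariate described below (0.00937), without the 2 shallow libraries (0.0189) and with the line alone (limma adjusted p = 0.000433). Ishikawa had the lowest NDRG1, 8.85 to 15.8 CPM across all libraries. SNGM held 166 and 166 CPM on vehicle and 141 and 92.1 on the combination (log2 -0.54, SE 0.23, limma adjusted p = 0.113). Without the shallow library, at 92.1 CPM, that difference was -0.24 (limma adjusted p = 0.623), and without the other combination library it was -0.85 and passed (0.0166). The combination's effect on NDRG1 was lower in Ishikawa-S33Y than in Ishikawa by -1.57 and than in HEC265 by -1.79 (limma adjusted p = 0.00485 and 0.000835).

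Counted over the members, most fell in Ishikawa-S33Y and some in SNGM and HEC265, while in Ishikawa the count was at the share of all genes. Counts cover the 9 members with a mean log2(CPM + 1) of at least 1 over all libraries, or 8 where BNIP3 is not tested, and are read against the 14409 tested genes with the same mean. With the combination, 8 of 8 fell in Ishikawa-S33Y, by log2 differences from -1.58 (PDK1) to -0.64 (EGLN3 and ANKRD37). There 19.7% of the 14409 genes fell and their median was 0.06. In SNGM 4 of 9 fell (BNIP3, PDK1, EGLN3 and SLC2A1; background 7.84%), and in HEC265 2 of 9 fell (PDK1 and VEGFA; background 8.15%) while ANKRD37 rose (background for rises 14%). In Ishikawa 1 of 8 fell, SLC2A1, which is no more than the background of 12.5%. With SM08502 alone the counts that fell were 7 of 8 in Ishikawa-S33Y, 5 of 9 in SNGM, 2 of 9 in HEC265 and 1 of 8 in Ishikawa. Their backgrounds were 11.6%, 4.51%, 6.14% and 9.62%, so the Ishikawa count was again near its background. ANKRD37 also rose with SM08502 in HEC265, where 10.6% of genes rose. The EGLN3 call with SM08502 in Ishikawa-S33Y was lost with the line alone (log2 -0.42, limma adjusted p = 0.0583). It was also lost without any 1 of its 4 libraries (log2 -0.47 to -0.36), and the NDRG1 call there without replicate 2 of SM08502 (log2 -0.70). The SNGM counts fell to 2 in both comparisons without replicate 1 of SNGM vehicle, and the SM08502 count also without replicate 1 of SNGM SM08502. In HEC265 the SM08502 count fell to 1 without any 1 of its 4 libraries.

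In Ishikawa-S33Y the count with the combination was 7 of 8 without the 2 shallow libraries. A length score, in which 81 ribosomal protein genes were subtracted from 40 genes of long transcripts (mean log2 levels), ran from -0.90 to -0.77 on vehicle and from -1.52 to -1.12 on the combination in that line. With this score as a covariate 8 of 8 were called. The score lay between -2.70 and -1.07 in Ishikawa, whose RNA input was lower, so line and library preparation cannot be told apart.

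In libraries that the choice of BNIP3 did not use, SM08502 against paclitaxel lowered 7 of 9 members in Ishikawa-S33Y (background 10.8%), with EGLN3 and ANKRD37 short of the threshold (limma adjusted p = 0.112 and 0.128). EGLN3 passed without the shallow libraries (0.0242) and with the length covariate (limma adjusted p = 0.0393), and ANKRD37 with quantile normalization (0.0288) and with the line alone (0.0398). In Ishikawa, limma called 0 of 9 (background 4.05%), with 1 member, PDK1, at an unadjusted p under 0.05, and limma voom on recovered reads also called 0. Of all 14409 genes, 3368 were at that unadjusted limit by limma in Ishikawa. The difference between the lines passed for 5 of 9 members, namely BNIP3, BNIP3L, VEGFA, PDK1 and ADM, where 0.743% of genes were lower. This count fell to 1 without replicate 2 of Ishikawa SM08502, without either Ishikawa-S33Y paclitaxel library or without replicate 2 of Ishikawa-S33Y SM08502, and to 0 with the 2 lines fitted alone.

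The combination's effect was lower in Ishikawa-S33Y than in Ishikawa for 6 of 8 members (background 4.77%), than in SNGM for 5 of 8 (background 11.3%) and than in HEC265 for 6 of 8 (background 8.83%). These 3 comparisons share the Ishikawa-S33Y libraries. The SNGM comparison gave 3 of 8 without the shallow libraries, and also without replicate 2 of SNGM vehicle. ADM lost its call there without any 1 of 4 libraries (limma adjusted p = 0.0611 to 0.0726), namely replicate 2 of vehicle or of the combination in either line. SLC2A1 lost it without replicate 1 of Ishikawa-S33Y vehicle (0.0502) or replicate 2 of SNGM vehicle (0.0865). Against Ishikawa, ADM missed the threshold with the 2 lines alone (0.0537). SM08502 doses differed between these lines as given above, and dose and line cannot be told apart.

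Baseline levels also differed between these lines. On vehicle 6 of 8 members were higher in Ishikawa-S33Y than in Ishikawa (background 20.9%): NDRG1 by 2.74, ADM by 2.29, SLC2A1 by 1.92, VEGFA by 1.24, PDK1 by 0.77 and BNIP3L by 0.74 on the log2 scale. The largest limma adjusted p among them was 0.000765. EGLN3 and ANKRD37 differed by -0.01 (95% interval -0.29 to 0.27) and 0.00 (-0.48 to 0.48). On paclitaxel, in libraries independent of the choice of BNIP3, 7 of 9 were higher (background 21.9%), BNIP3 among them by 2.08 (SE 0.17, limma adjusted p = 3.66e-09). After the combination, the Ishikawa-S33Y levels of BNIP3 lay around those of Ishikawa under any treatment. Those of BNIP3L and PDK1 lay below all Ishikawa libraries, and those of NDRG1, ADM and SLC2A1 above them. For VEGFA, 59.3 and 46.5 CPM lay above the Ishikawa combination pair (42.9 and 40.2) but on either side of the Ishikawa vehicle libraries (47 and 47.7). The vehicle libraries enter both the baseline and the drug comparison.

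With paclitaxel alone no member passed the threshold. Against vehicle limma called 0 of 8 in each of the Ishikawa lines and 0 of 9 in each of SNGM and HEC265. At an unadjusted p under 0.05 there was 1 member in Ishikawa and 0 in each other line, and limma voom also called 0 in all lines. That member was SLC2A1, which went from 190 and 186 CPM on vehicle to 155 and 135 on paclitaxel without overlap. Its difference of -0.37 (SE 0.11, 95% interval -0.60 to -0.15, limma unadjusted p = 0.00263, limma adjusted p = 0.331) was no smaller than the -0.32 called with the combination. Very few genes of any kind passed, 0.0139% in SNGM, 0.00694% in Ishikawa and 0% in both Ishikawa-S33Y and HEC265. The combination against SM08502 alone in Ishikawa-S33Y gave 0 of 8 called (background 0.0555%), with 2 members, BNIP3L and SLC2A1, at an unadjusted p under 0.05 by limma. Of all 14409 genes, 1658 were at that limit by limma. Limma voom called 0, with 2 at an unadjusted p under 0.05. BNIP3L differed by -0.49 (95% interval -0.83 to -0.16) and SLC2A1 by -0.51 (-0.74 to -0.28), and these intervals are not adjusted for the number of genes tested.

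The wider HIF programme was described with 4 gene lists. Genes of glucose uptake and glycolysis moved as a group in Ishikawa-S33Y: 18 of 19 fell with the combination (background 19.7%; median -1.27, against 0.06 over all genes). SLC2A3, a glucose transporter, was not called (-0.12, limma adjusted p = 0.586). In that line it stood at only 2.32 and 1.84 CPM on vehicle and 1.39 and 2.34 on the combination, the last from the shallow library. A fall could be missed at these levels. PFKP, a phosphofructokinase, went from 277 and 280 CPM on vehicle to 63.1 and 72.9 (log2 -2.02). SLC16A3, which exports lactate, went from 86 and 83.7 to 24.3 and 21.1 CPM (log2 -1.86). PFKL, the liver-type phosphofructokinase, went from 65.1 and 62.5 to 23.4 and 13 CPM (log2 -1.81). The largest limma adjusted p of these 3 was 9.12e-07. The list's count was 6 of 19 lower in Ishikawa, 5 of 19 lower and 1 higher in SNGM (background for rises 11.9%), and 2 of 19 lower in HEC265. Read against all genes (backgrounds for falls 12.5%, 7.84% and 8.15%), the HEC265 count was near the background. The Ishikawa count ran from 0 to 7 over the other settings and from 1 to 4 with 1 library left out, while the Ishikawa-S33Y count ran from 16 to 18 in both. The combination's effect was lower in Ishikawa-S33Y than in Ishikawa for 11 of 19 (background 4.77%).

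Other known HIF targets followed in part. Of 26, 19 fell and 2 rose with the combination in Ishikawa-S33Y (median -0.70; background 19.7% for falls and 25.1% for rises). DDIT4, an inhibitor of mTORC1, went from 73.8 and 75.3 CPM to 32.2 and 23.1 (log2 -1.42, limma adjusted p = 4.99e-07). LOX, which crosslinks collagen, went from 605 and 651 to 186 and 239 CPM (log2 -1.57, limma adjusted p = 1.21e-05). PPFIA4, a liprin, went from 6.51 and 7.67 to 2.47 and 0.334 CPM (log2 -1.91, limma adjusted p = 0.000183), the last from a shallow library. WSB1, a ubiquitin ligase adaptor, and HMOX1, heme oxygenase 1, rose by 0.47 each (limma adjusted p = 0.00206 and 0.0119). In Ishikawa 6 of 26 fell and 2 rose (background 12.5% and 12.4%), in SNGM 5 fell and 4 rose (7.84% and 11.9%), and in HEC265 1 fell and 3 rose (8.15% and 14%). The HEC265 counts and the SNGM rises were thus near or below the share of all genes. The SNGM count that fell was 3 and 1 without replicate 1 or 2 of vehicle, and 9 and 2 without replicate 1 or 2 of the combination. The Ishikawa count that fell was 2 to 3 without any 1 library.

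The genes of oxygen sensing and the HIF subunits were called in both directions, near the shares of all genes. In Ishikawa-S33Y 4 of 16 fell and 4 rose with the combination (background 19.7% and 25.1%), and the median was 0.13 against 0.06 over all genes. HIF1A, the oxygen-labile subunit, went from 1010 and 996 CPM to 643 and 736 (log2 -0.55, SE 0.14, limma adjusted p = 0.00291). ARNT2, a partner subunit, fell by -1.09 and EGLN1, the main prolyl hydroxylase, by -0.68 (limma adjusted p = 0.000845 and 0.000857). TCEB1 and TCEB2, the elongin C and B subunits of the VHL ligase, and CUL2, its scaffold, rose by 0.54, 0.39 and 0.37 (limma adjusted p = 0.0189, 0.0411 and 0.00673). HIF1A RNA was also lower with the combination in HEC265 (log2 -0.52, SE 0.14, limma adjusted p = 0.00917) and in Ishikawa (-0.40, limma adjusted p = 0.0406). The list's count in Ishikawa, 2 lower (background 12.5%), ran from 0 to 4 over the other settings and from 0 to 1 with 1 library left out, so at least 1 of the 2 calls was lost whichever library was left out. In SNGM 0 of 16 were called by limma (background 19.8% in either direction). The combination's effect on HIF subunits and sensors differed between Ishikawa-S33Y and Ishikawa for 0 of 16 genes by limma (background 11.3% in either direction). RNA levels do not measure HIF protein, which was not measured here.

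Mitophagy and autophagy genes other than the 2 receptors did not move as a group. In Ishikawa-S33Y 5 of 15 fell and 1 rose with the combination, where 19.7% of all genes fell and 25.1% rose, and their median was 0 against 0.06 over all genes. FKBP8, a mitophagy receptor of the outer membrane, gave -0.59, OPTN, an autophagy receptor, -0.52 and BCL2L13, another mitochondrial receptor, -0.51 (limma adjusted p = 0.00923, 0.0047 and 0.00082). MAP1LC3B, the LC3 protein that mitophagy receptors bind, went from 111 and 117 CPM to 159 and 171 (log2 0.53, limma adjusted p = 0.000249). The count that fell was 2 without the shallow libraries and 3 without replicate 1 of Ishikawa-S33Y vehicle.

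**Figure D4:**
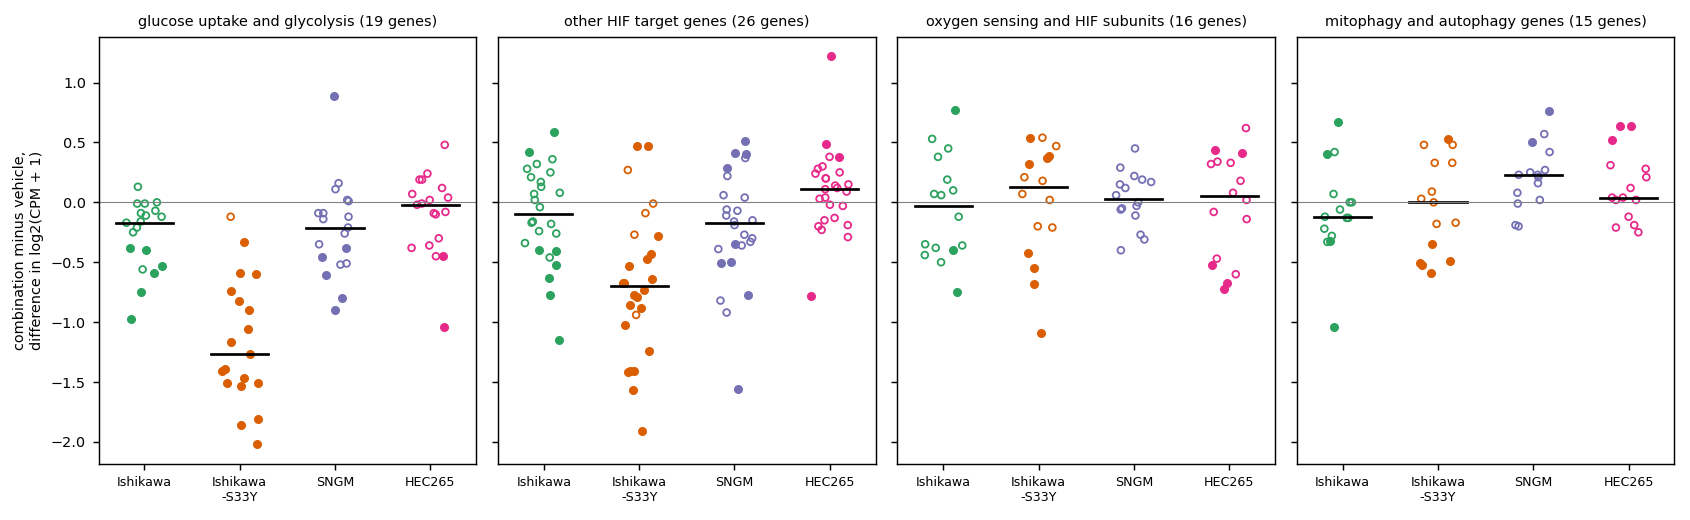
Log2 differences of the combination against vehicle for each gene of the 4 lists, by line, on the log2(CPM + 1) scale. Each point is 1 gene, filled where the limma adjusted p is under 0.05, and the bar is the list's median. In Ishikawa-S33Y the glycolysis list has a median of -1.27 and the mitophagy and autophagy list a median of 0.

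Likeness to BNIP3 was measured as Pearson's r over the 32 libraries after the mean of each line was subtracted. It is a description, since libraries of a group share treatment and the values chose BNIP3. BNIP3 itself varied little in Ishikawa (46.2 to 52.7 CPM) and HEC265 (90.4 to 104 CPM). All r values therefore rest mostly on Ishikawa-S33Y and SNGM. The 5 genes most like it among 12117 were PGK1 (r = 0.95), LDHA, SKAP2, ENO1 and HDAC3 (r = 0.93 each). PGK1, LDHA and ENO1 are glycolytic enzymes, SKAP2 is a signalling adaptor and HDAC3 a histone deacetylase. PGK1 averaged 465 ± 8.54 CPM (SD, n = 2) on vehicle and 177 ± 13.5 on the combination in Ishikawa-S33Y. HDAC3 averaged 33 ± 2.42 CPM and 8.06 ± 3.36 in the same groups, while in SNGM it averaged 33.3 ± 2.15 and 30.2 ± 0.369. Among the members ADM was most like BNIP3 (r = 0.92), followed by BNIP3L (0.88), SLC2A1 (0.87), PDK1 (0.86), NDRG1 (0.82), VEGFA (0.72) and EGLN3 (0.71), with ANKRD37 least (0.55). CA9 gave 0.83 but was too low to be among the 12117 genes. Its value rests mostly on Ishikawa-S33Y, since every library of the other lines was at or below 0.244 CPM.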

How the data were processed

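RNA of 4 cell lines was sequenced after rRNA depletion, per the labels' protocols. The authors deposited log10(CPM + 1) values for 35238 genes in 32 libraries. The submitters' processing notes name bcl2fastq, kallisto, STAR and GRCh38, while the counting annotation and strand are not given in the sources used here. Values were back-transformed to reads, which gave each library's depth. Of the nonzero values at lower read numbers, 100% came out as whole reads within 0.1 read, and values at higher read numbers were not in that check. The unit was log10 and not counts, so limma (version 3.58.1, R 4.3.3) was fitted to log2(CPM + 1) over all 32 libraries, with 1 mean per group, an intensity trend and 16 residual degrees of freedom. The 17011 genes above 1 CPM in at least 2 libraries were tested in 36 contrasts, with Benjamini-Hochberg adjustment per contrast and a threshold of 0.05. The fit was tested on simulated data.

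The members, the 4 gene lists and the markers were chosen with earlier results of these data known. The limit of a mean log2 of 1 for counting members was set after their values were seen. All 10 members are named, with up to 3 genes per list that rose and 3 that fell most with the combination in Ishikawa-S33Y (adjusted p under 0.05, mean log2 of at least 1) and the 5 genes most like BNIP3. SLC2A3 is named beyond that rule after its values were seen. Promoter sequences and gene positions are from RefSeq (GRCh38.p14). Alternatives were no filter, a stricter filter, another pseudocount, 2 other scalings, no trend, a replicate block, voom, single lines, leaving out libraries and a length covariate. Tables of splicing events were not analysed here.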

Additional observations from a re-analysis of the deposited data

Results flagged for a closer look

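Each of these results is a difference between Ishikawa-S33Y and another line in the effect of the same treatment that passed the limma threshold. For the combination against vehicle, the effect in Ishikawa-S33Y minus that in Ishikawa was -1.49 for BNIP3L, -0.90 for VEGFA, -1.57 for NDRG1, -1.38 for PDK1, -1.45 for ADM and -0.69 for SLC2A1 on the log2 scale. The limma adjusted p-values of these 6 ran from 0.000204 to 0.0103. Minus the effect in SNGM it was -1.07 for BNIP3L, -1.26 for VEGFA, -0.70 for PDK1, -1.08 for ADM and -0.56 for SLC2A1. The limma adjusted p-values of these 5 ran from 0.000343 to 0.0195. Minus the effect in HEC265 it was -1.44 for BNIP3L, -1.79 for NDRG1, -0.94 for PDK1, -2.08 for ADM, -1.42 for ANKRD37 and -1.0 for SLC2A1. The limma adjusted p-values of these 6 ran from 0.000155 to 0.00482. For SM08502 against paclitaxel, the effect in Ishikawa-S33Y minus that in Ishikawa was -1.47 for BNIP3, -1.02 for BNIP3L, -0.95 for VEGFA, -1.0 for PDK1 and -1.27 for ADM. The limma adjusted p-values of these 5 ran from 0.00468 to 0.0489. Every difference was negative, and the drug doses and the RNA input differed between lines as the report states. Whether dose, input or line sets these differences cannot be told apart in this design. In the comparison with HEC265, ANKRD37 passed the threshold in both lines, falling in Ishikawa-S33Y and rising in HEC265. Both of these calls were lost in some other settings and with single libraries left out, as given above. NDRG1 and ADM also fell in Ishikawa-S33Y, and their differences in HEC265 were 0.64 and 0.52 (limma adjusted p = 0.0579 and 0.12).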

How the results depend on the processing

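Over the single members, 2126 of the recomputed values counted as unchanged, 98 lost the call, 45 gained one, 33 changed sign and 2 untested BNIP3 values moved by more than the spread of duplicates. Unchanged means the same direction and the same side of the threshold. For untested BNIP3 values it means only a move smaller than that spread. Of the counts of members, those for Ishikawa-S33Y against vehicle, and against Ishikawa at baseline, stayed within 1.5 times the reported count under every alternative run. For the combination in Ishikawa the count of 1 became 0 with no filter, median re-centring, no intensity trend or the line alone. For SM08502 in Ishikawa the count of 1 became 2 with the stricter filter or voom, 3 without the shallow libraries or with the length covariate, and 0 with re-centring or the line alone. In SNGM both counts, 4 and 5, became 2 with the line alone. In HEC265 the 1 rise with the combination became 2 with the stricter filter, the replicate block, voom, the length covariate or without the shallow libraries, and 3 with the line alone. The 1 rise with SM08502 became 0 with quantile normalization and 2 with the line alone. SM08502 against paclitaxel in Ishikawa went from 0 to 1 with the stricter filter, the replicate block, the length covariate or without the shallow libraries. Its difference from Ishikawa-S33Y went from 5 to 0 with the 2 lines alone. The combination difference between Ishikawa-S33Y and SNGM went from 5 to 3 without the shallow libraries. The combination against SM08502 in Ishikawa-S33Y went from 0 to 1 with no filter, quantile normalization or the line alone and to 2 with the length covariate. Fewer libraries enter the fits of single lines; other causes were not tested. With 1 library left out at a time, the lower counts ran from 0 to 0 for combination against vehicle in Ishikawa, 2 to 6 for combination against vehicle in SNGM, 0 to 1 for SM08502 against vehicle in Ishikawa, 2 to 4 for SM08502 against vehicle in SNGM, 1 to 1 for SM08502 against vehicle in HEC265, 0 to 1 for SM08502 against paclitaxel in Ishikawa, 3 to 5 for combination effect in Ishikawa-S33Y minus SNGM, 1 to 6 for SM08502 against paclitaxel in Ishikawa-S33Y minus Ishikawa and 0 to 1 for combination against SM08502 in Ishikawa-S33Y, and the higher counts from 0 to 1 for combination against vehicle in HEC265 and 0 to 1 for SM08502 against vehicle in HEC265.

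These sign changes were all of values that had not passed: ANKRD37 for combination against vehicle in SNGM to 0.01 without the shallow libraries, BNIP3 for combination against vehicle in HEC265 to -0.02 with median re-centring, SLC2A1 for combination against vehicle in HEC265 to 0.02 with the length covariate, ANKRD37 for SM08502 against paclitaxel in Ishikawa to -0.03 with the length covariate, EGLN3 for Ishikawa-S33Y minus Ishikawa on vehicle to 0.02 with median re-centring, 0.08 with quantile normalization and 0.15 with the length covariate, ANKRD37 for Ishikawa-S33Y minus Ishikawa on vehicle to 0.00 with voom and ANKRD37 for Ishikawa-S33Y minus Ishikawa on paclitaxel to 0.23 with the length covariate. Values that changed sign with 1 library left out ran from -0.50 to 0.07 for BNIP3L in combination against vehicle in SNGM, -0.66 to 0.01 for ANKRD37 in combination against vehicle in SNGM, -0.06 to 0.04 for SLC2A1 in combination against vehicle in HEC265, -0.15 to 0.26 for NDRG1 in SM08502 against vehicle in Ishikawa, -0.13 to 0.01 for VEGFA in SM08502 against vehicle in SNGM, -0.03 to 0.14 for BNIP3 in SM08502 against paclitaxel in Ishikawa, -0.25 to 0.32 for VEGFA in SM08502 against paclitaxel in Ishikawa, -0.25 to 0.34 for NDRG1 in SM08502 against paclitaxel in Ishikawa, -0.18 to 0.29 for ANKRD37 in SM08502 against paclitaxel in Ishikawa, -0.08 to 0.11 for SLC2A1 in SM08502 against paclitaxel in Ishikawa, -0.03 to 0.44 for EGLN3 in combination effect in Ishikawa-S33Y minus SNGM, -0.65 to 0.02 for ANKRD37 in combination effect in Ishikawa-S33Y minus SNGM, -0.13 to 0.11 for EGLN3 in Ishikawa-S33Y minus Ishikawa on vehicle, -0.07 to 0.07 for ANKRD37 in Ishikawa-S33Y minus Ishikawa on vehicle, -0.02 to 0.11 for EGLN3 in Ishikawa-S33Y minus Ishikawa on paclitaxel and -0.26 to 0.21 for ANKRD37 in Ishikawa-S33Y minus Ishikawa on paclitaxel.

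Median re-centring moved the share of rises among calls with the combination in HEC265 from 63.3% to 41.1%, and the background of falls there from 8.15% to 12.2%. For SM08502 in HEC265 that share went from 63.4% to 39.6%. For the difference between Ishikawa-S33Y and Ishikawa in SM08502 against paclitaxel the share went from 50.5% to 30.7%, and it was 38% with quantile normalization. Replicate numbers did not pair the samples: replicate differences of 2 treatments of a line correlated over 6083 genes between -0.57 and 0.86 (Ishikawa), -0.65 and 0.84 (SNGM), -0.15 and 0.33 (HEC265) and -0.12 and 0.14 (Ishikawa-S33Y). The replicate block changed 2 counts of members by more than 1.5 times, both given above. Depth limits CA9 and ANKRD37 most, with at most 55 and as few as 6 reads per library.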
